A study of Homo sapiens with 12 samples.

Results

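Centromere and kinetochore genes encode the proteins that mark the centromere of each chromosome and build on it the structure that holds spindle microtubules in mitosis. The set comprised every gene of the deposited count table whose symbol is CENP followed by 1 letter, together with a fixed series of partner genes (the NDC80, MIS12, SKA and passenger complexes, the shugoshins, and checkpoint and CENP-A loading factors). It held 44 of the 13853 genes in the table, and all 44 passed the filter on low counts. The cells were H1299, an established human lung cancer line. Control cells carried a control vector (shNT, 3 RNA-seq libraries), and the other cells carried a short hairpin that knocks down GAS41 (shGAS41, 3 RNA-seq libraries). Per the labels' protocols, viral supernatant was used for infection and a drug then selected the infected cells. The sources used here do not state how many hairpins or separate cultures were used, so p-values measure only the spread between libraries, which may be technical. GAS41 is the product of YEATS4, a reader of acetylated histone H3 that belongs to complexes which place the variant histone H2A.Z.

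The kinetochore is assembled in layers. Nucleosomes with the histone H3 variant CENP-A mark the centromere and are renewed once per cell cycle by a dedicated chaperone and a licensing complex. A constitutive network of CENP proteins sits on these nucleosomes through the cell cycle. In mitosis it carries the KNL1, MIS12 and NDC80 assemblies, which bind microtubules and serve as the platform of the spindle checkpoint. Many of these genes are known to be transcribed mainly in late S phase, G2 and mitosis, and cultures with many dividing tumour cells contain abundant transcripts of them.

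The libraries held 58629147 to 72747010 counts. YEATS4 (ENSG00000127337) had 44.1, 47.1 and 47.6 CPM (counts scaled to a common library total, which was first adjusted by TMM, a method that equalises the bulk of the genes) in the control libraries and 1.66, 1.77 and 2.01 CPM after knockdown, so the counts followed the labels (log2 fold change −4.68 ± 0.09, SE; adjusted p = 6.35e-10, edgeR). The keratin genes KRT7, KRT8 and KRT18 summed to between 857 and 877 CPM in control and between 601 and 618 CPM in knockdown libraries: KRT8 (−0.67) and KRT18 (−0.44) fell and KRT7, at 1.69 CPM or less in control, rose (1.90), while the epithelial markers KRT19, EPCAM and CDH1 were not among the genes analysed. The mesenchymal markers VIM, CDH2 and FN1 all rose, and their sum went from between 2670 and 2780 to between 3190 and 3200 CPM. Of 4 lung alveolar, 4 immune and 3 endothelial markers none was among the genes analysed. Of 5 fibroblast markers 1 was, COL1A1, which rose from 0.925, 0.951 and 0.574 CPM to 1.92, 1.67 and 1.47 CPM (log2 fold change 1.04, adjusted p = 0.00192, edgeR). The part of these marker shifts in the results on the set was not tested.

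Transcripts of centromere and kinetochore genes were lower after GAS41 knockdown at almost every layer. Of the 44 genes, 40 fell, 4 did not pass the test and none rose (edgeR, quasi-likelihood; p adjusted over all genes by the method of Benjamini and Hochberg, threshold 0.05). Among all 13846 genes tested 34.5% fell and 33.6% rose, 68.1% in all. The count of rising genes in the set was also 0 at an unadjusted p under 0.05, and 0 with DESeq2 and with limma-voom. The median log2 fold change was −0.65, which is 63.6% of the control level, beside −0.01 over all genes tested. Fitted values were below 0 for 43 of the 44 genes, against 50.5% of all genes. In 40 of the 44 genes every knockdown library lay below every control library, which held for 36.7% of all genes. A test against a minimum change of 1.5-fold (edgeR's glmTreat) called 18 of the 44 lower and none higher, beside 7.42% lower and 9.02% higher among all genes. A log2 fold change of −1 or lower was fitted for 9 of the 44 genes and for 3.71% of all genes.

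**Figure D1:**
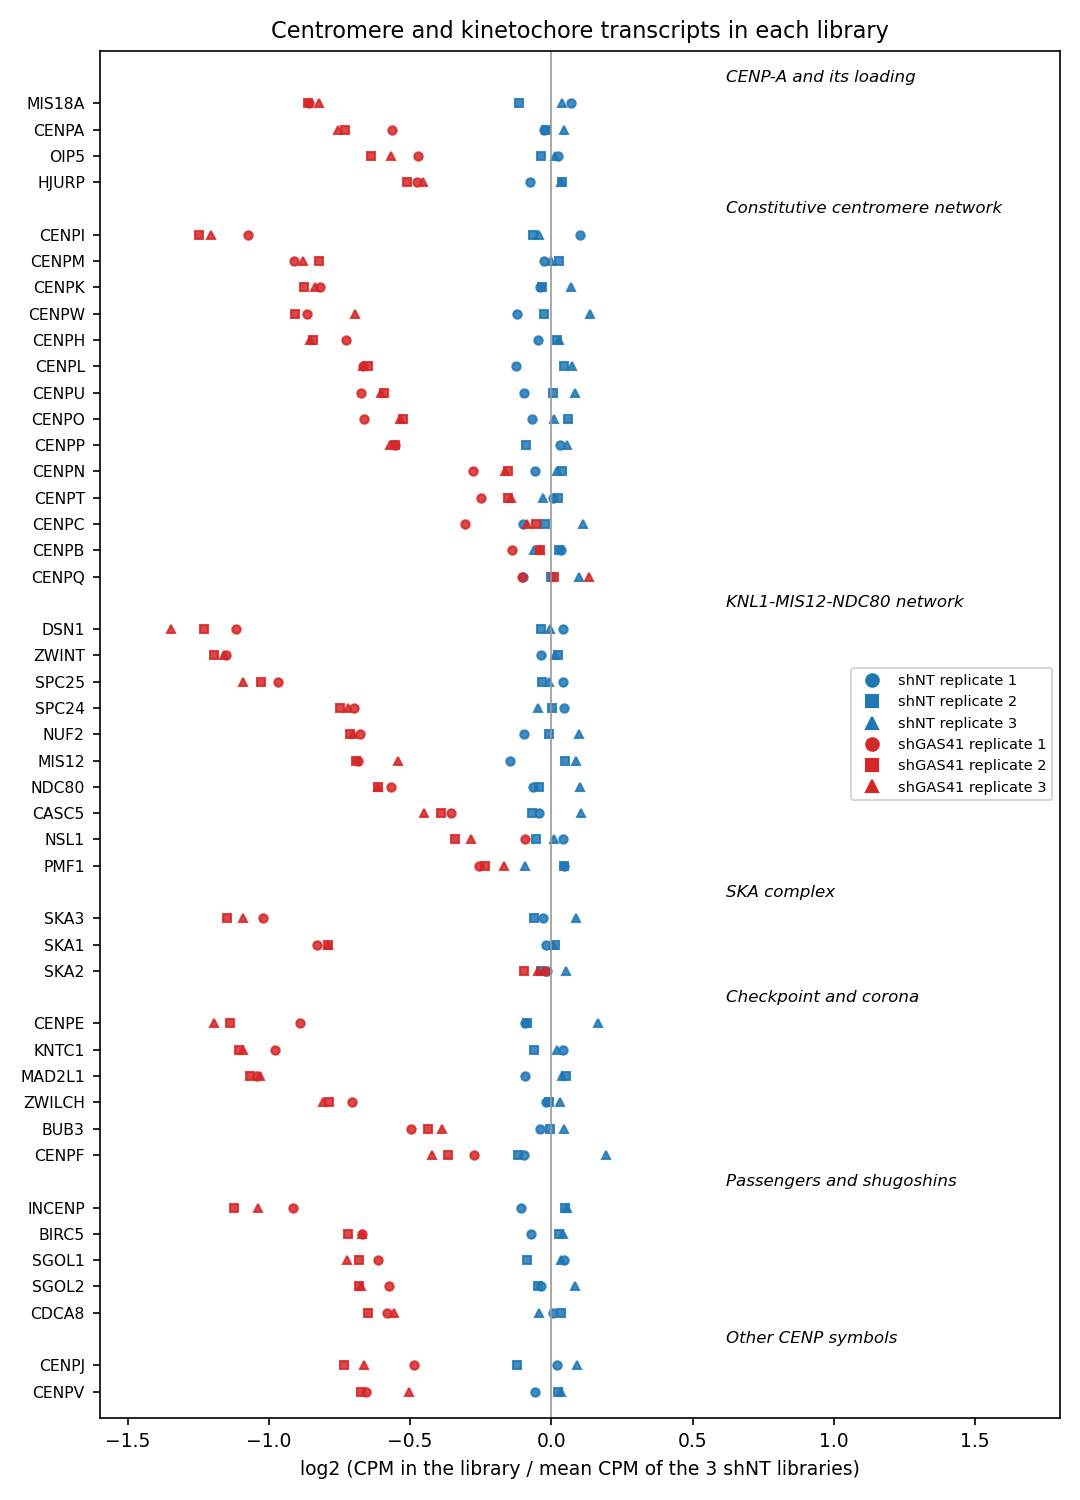
Level of each of the 44 transcripts in each library, as log2 of its CPM over the mean CPM of the 3 control libraries (horizontal axis), with genes ordered by role on the vertical axis. Blue symbols are control and red symbols knockdown libraries, and in 40 of the 44 genes all 3 red symbols lie to the left of all 3 blue ones.

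The set as a whole took 0.321, 0.326 and 0.343% of the counts in the control libraries and 0.221, 0.211 and 0.213% in the knockdown libraries. The knockdown shares were all lower, with no overlap. Control library 3 had the highest CPM of its group for 24 of the 44 genes, and knockdown library 1 for 23 of 44. Within a group the genes varied little: the median coefficient of variation was 4.43% in control and 3.90% in knockdown libraries, beside 5.80 and 5.92% over all genes. In such bulk RNA, fewer cells in the phases that use these genes and less RNA of these genes per cell cannot be told apart.

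Other genes of the cell cycle were lower too. All 25 genes of a late cell-cycle list fell (median log2 fold change −0.73), among them the ubiquitin-conjugating enzyme gene UBE2C (−2.55), which had the lowest value of that list. All 23 genes of an S-phase list fell (median −1.04). The smallest p of that list belonged to the thymidine kinase gene TK1 (158, 167 and 153 CPM in control, 55.7, 55.3 and 58.0 CPM after knockdown) and the replication helicase gene CDC45 (−1.38). The groups of CCNE1 overlapped (−0.33, adjusted p = 0.0386, edgeR), and it did not pass once control library 2 (adjusted p = 0.119) or 3 (0.138), or knockdown library 1 (0.0782) or 2 (0.0697), was left out. The median of the centromere and kinetochore genes, −0.65, was therefore close to that of the late list, 0.08 above it on the log2 scale. The part of these cell-cycle shifts in the fall of the kinetochore genes was not tested.

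**Figure D2:**
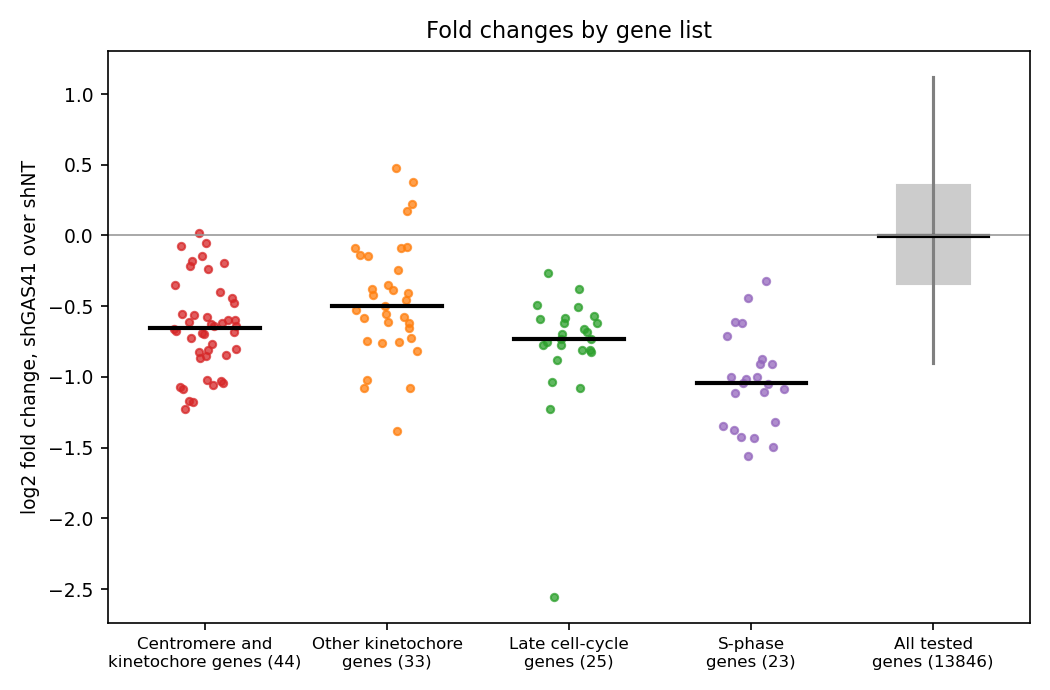
Log2 fold change of knockdown over control (vertical axis) for the genes of 4 lists, one point per gene with the list median as a black bar, and for all 13846 genes tested as a box of the middle 50% with a line from percentile 5 to 95. The medians are −0.65, −0.50, −0.73, −1.04 and −0.01 from left to right.

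Promoter sequences of the set are shown because its genes moved together and because late cell-cycle genes are known for a promoter element, the CHR, that is bound by the MuvB-containing regulators of the cell cycle. Windows from 250 bases before to 50 bases after the transcription start, from RefSeq (GRCh38.p14, a later build than the hg19 named in the submitters' processing notes), were at hand for 36 of the 44 genes. The CHR letters searched were TTTGAA and TTCGAA on both strands. They occurred in 18 of the 36 windows, beside 15 of 21 windows of the late list (71.4%), 2 of 19 of the S-phase list (10.5%), 10.9% of 10561 windows of genes in the count table and 16.6% of all 27305 windows. Of the 20 matches in the set, 17 began between 50 bases before and 50 bases after the start. A match in that narrow range was held by 44.4% of the set's windows, by 42.9% of those of the late list, by none of the S-phase list and by 3.2% of windows of genes in the table. CCAAT, searched on both strands, was in 61.1% of the set's windows, 85.7% of those of the late list, 57.9% of those of the S-phase list and 36.7% of those of genes in the table. The E2F letters TTTCCCGC, TTTCGCGC, TTTGCCGC and TTTGGCGC were in 11.1% of the set's windows, 9.5% of the late windows, 68.4% of the S-phase windows and 5.5% of those of genes in the table. These matches describe letters in a window, not bound sites.

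The 120 bases before the start are printed for the 6 genes of the set with a CHR match wholly inside them. They are followed by DSN1, the gene of the set with the lowest log2 fold change, and by CENPQ and SKA2, which did not pass the test, none of which has a CHR match in its window. Each is written 5′ to 3′ on the strand of the gene. Capitals mark the CHR letters and the CCAAT letters on either strand, which share bases in CDCA8.
CENPA (chr2:26785936-26786055, plus strand): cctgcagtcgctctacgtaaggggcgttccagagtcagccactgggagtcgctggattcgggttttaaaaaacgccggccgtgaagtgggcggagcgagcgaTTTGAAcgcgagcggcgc
ZWINT (chr10:56361260-56361379, minus strand): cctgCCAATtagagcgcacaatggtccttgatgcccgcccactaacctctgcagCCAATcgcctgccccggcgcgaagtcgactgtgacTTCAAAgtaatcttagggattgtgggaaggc
CDCA8 (chr1:37692396-37692515, plus strand): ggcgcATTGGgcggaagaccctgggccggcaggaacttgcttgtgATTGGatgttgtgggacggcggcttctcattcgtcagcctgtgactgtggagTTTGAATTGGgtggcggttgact
INCENP (chr11:62123891-62124010, plus strand): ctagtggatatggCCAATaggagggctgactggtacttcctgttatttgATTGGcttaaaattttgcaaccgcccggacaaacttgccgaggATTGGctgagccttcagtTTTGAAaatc
HJURP (chr2:233854536-233854655, minus strand): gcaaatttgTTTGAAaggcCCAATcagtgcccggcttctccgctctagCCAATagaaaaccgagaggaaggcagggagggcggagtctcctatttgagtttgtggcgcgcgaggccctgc
CENPC (chr4:67545504-67545623, minus strand): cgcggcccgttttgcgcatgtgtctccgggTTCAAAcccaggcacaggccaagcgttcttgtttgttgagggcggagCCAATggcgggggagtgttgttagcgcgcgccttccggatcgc
DSN1 (chr20:36773764-36773883, minus strand): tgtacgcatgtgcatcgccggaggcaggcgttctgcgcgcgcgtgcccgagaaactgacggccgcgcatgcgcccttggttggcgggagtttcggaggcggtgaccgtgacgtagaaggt
CENPQ (chr6:49463250-49463369, plus strand): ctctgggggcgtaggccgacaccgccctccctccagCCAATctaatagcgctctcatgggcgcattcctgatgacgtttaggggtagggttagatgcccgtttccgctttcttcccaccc
SKA2 (chr17:59155187-59155306, minus strand): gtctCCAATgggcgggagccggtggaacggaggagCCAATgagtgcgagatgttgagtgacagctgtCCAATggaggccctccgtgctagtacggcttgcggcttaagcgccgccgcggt
Falls were found both with and without the CHR letters, and the difference between them was not tested. The 18 genes with a match had a median log2 fold change of −0.68 (quartiles −0.97 and −0.56), and 17 of them fell, each also in all 14 alternative fits. The 18 without had a median of −0.62 (quartiles −0.76 and −0.22), and 15 of them fell, 12 in all 14 alternative fits; the other 3 were CENPT, NSL1 and PMF1. Of the genes with a match 10 lay among the lowest 10% of all log2 fold changes, and of those without 6 did. Among the printed genes, DSN1 without a match had −1.23, and CENPC with one had −0.14 and did not pass the test.

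The genes of CENP-A and its loading all fell, 4 of 4 (median log2 fold change −0.62). CENPA, the centromeric histone itself, had 48.1, 48.4 and 50.6 CPM in control and 33.2, 29.6 and 29.1 CPM in knockdown libraries. The groups did not overlap, and the log2 fold change was −0.68 ± 0.06 (SE; adjusted p = 5.61e-06, edgeR). HJURP, the chaperone that delivers CENP-A, had 155, 168 and 167 CPM in control and 118, 115 and 119 CPM in knockdown libraries, again without overlap (−0.48). The Mis18 complex licenses the centromere for new CENP-A. Its subunit gene MIS18A fell furthest of the 4, from 33.8 ± 2.30 to 18.8 ± 0.278 CPM (mean ± SD, n = 3; log2 fold change −0.85), and OIP5, which encodes the other Mis18 subunit, had −0.56.

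The constitutive centromere network held both genes with large falls and genes with small or no called changes. Of its 14 genes 11 fell and 3 did not pass the test (median log2 fold change −0.60). CENPI, CENPH, CENPK and CENPM encode the CENP-HIKM unit, and all 4 fell, by between 0.81 and 1.17 on the log2 scale. CENPI had 37.8, 33.7 and 34.1 CPM in control and 16.7, 14.8 and 15.3 CPM in knockdown libraries, 44.3% of control, with no overlap (−1.17 ± 0.07, SE; adjusted p = 3.96e-07, edgeR). CENPM had −0.87, CENPK −0.84 and CENPH −0.81.

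CENPB, CENPC and CENPN were among the genes of the network with small changes. CENPC, which links CENP-A nucleosomes to the outer kinetochore, had 15.8, 16.7 and 18.3 CPM in control and 13.7, 16.3 and 15.9 CPM in knockdown libraries. The groups overlapped, and the gene did not pass the test (−0.14 ± 0.09, SE; adjusted p = 0.180, edgeR). CENPB, which binds a sequence in alphoid satellite DNA, had 74.8 to 80.0 CPM in control and 70.9 to 76.0 CPM in knockdown libraries and did not pass either (−0.07 ± 0.05). CENPN, a reader of the CENP-A nucleosome, fell from 91.5 ± 3.24 to 79.8 ± 3.80 CPM (−0.20, adjusted p = 0.00644, edgeR), while CENPL, whose product forms a pair with CENP-N, fell by 0.66 on the log2 scale.

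The histone-fold pair of CENPT and CENPW was uneven in the same way. CENPT, whose product recruits the NDC80 complex, had 28.8, 29.1 and 28.1 CPM in control and 24.2, 25.8 and 26.0 CPM in knockdown libraries (−0.18, adjusted p = 0.0186, edgeR). Without control library 2 CENPT no longer passed (adjusted p = 0.0760, edgeR). CENPW fell from 26.9 ± 2.45 to 15.2 ± 1.20 CPM (mean ± SD, n = 3), a log2 fold change of −0.82. In the CENP-O group, CENPU (−0.62), CENPO (−0.57) and CENPP (−0.56) fell. CENPQ of the same group was the 1 gene of the 44 with a fitted value above 0 (0.02 ± 0.08, SE; adjusted p = 0.866, edgeR). It had 25, 26.8 and 28.7 CPM in control and 24.9, 27.0 and 29.4 CPM in knockdown libraries, and the groups overlapped.

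All 10 genes of the KNL1, MIS12 and NDC80 network fell (median log2 fold change −0.67), with the widest range of the role groups after the constitutive network and the SKA genes. DSN1, a subunit of the MIS12 complex, had 53.8, 50.9 and 52.0 CPM in control and 24.1, 22.3 and 20.5 CPM in knockdown libraries. It had the lowest log2 fold change of all 44 genes, −1.23 ± 0.07 (SE; adjusted p = 1.61e-07, edgeR), or 42.7% of control. Its complex partner MIS12 had −0.64, whereas NSL1 (−0.24, adjusted p = 0.0228, edgeR) and PMF1 (−0.22, adjusted p = 0.0213, edgeR) were only slightly lower. NSL1 did not pass once control library 1 (adjusted p = 0.0626) or 3 (0.0658), or knockdown library 2 (0.109) or 3 (0.0711), was left out. PMF1 did not pass once control library 1 (adjusted p = 0.0615) or 2 (0.0860), or knockdown library 1 (0.0514) or 2 (0.0769), was left out. PMF1 also has an annotated read-through transcript with BGLAP, whose reads may be shared.

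ZWINT encodes a partner of KNL1 that helps to bring the checkpoint to the kinetochore. It had 106, 110 and 109 CPM in control and 48.8, 47.3 and 48.5 CPM in knockdown libraries, with no overlap and little spread (−1.17 ± 0.05, SE; adjusted p = 2.44e-08, edgeR). CASC5, the gene of KNL1 itself, fell less, from 140 ± 9.33 to 106 ± 3.51 CPM (−0.40). The 4 genes of the NDC80 complex, the main microtubule-binding unit, fell more evenly. SPC25 had the lowest value (−1.03). SPC24 (−0.72 ± 0.05, SE), which like SPC25 encodes the end that faces the centromere, was close to NUF2 (−0.70 ± 0.06, SE). NUF2 and NDC80 (−0.60) encode the microtubule end.

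The SKA complex, which strengthens the hold on microtubules, showed the sharpest split. SKA3 had 75.1, 73.4 and 81.5 CPM in control and 37.8, 34.6 and 36.0 CPM in knockdown libraries (−1.09 ± 0.06, SE; adjusted p = 1.63e-07, edgeR). SKA1 had 60.0, 61.2 and 61.0 CPM in control and 34.2, 35.1 and 35.1 CPM after knockdown (−0.80). Neither gene's groups overlapped. SKA2 had 126, 124 and 132 CPM in control and 126, 119 and 123 CPM in knockdown libraries, which did overlap, and it did not pass the test (−0.06 ± 0.05, SE; adjusted p = 0.306, edgeR).

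The genes of the checkpoint and of the outer corona all fell, 6 of 6, and their median log2 fold change of −0.91 was the lowest of the role groups. MAD2L1 encodes MAD2, the protein that checkpoint signalling turns into an inhibitor of anaphase. It had 64.8, 71.7 and 71.1 CPM in control and 33.6, 33.0 and 33.9 CPM in knockdown libraries (−1.05 ± 0.06, SE; adjusted p = 1.40e-07, edgeR). KNTC1 (−1.06) and ZWILCH (−0.77) encode 2 of the subunits of the complex that recruits MAD1, MAD2 and dynein. BUB3, which binds KNL1, had 197, 201 and 209 CPM in control and 143, 149 and 155 CPM after knockdown, a smaller fall (−0.44).

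The corona genes CENPE and CENPF had the widest spread of the set among control libraries. CENPE, a kinesin that moves chromosomes to the spindle equator, had 110, 111 and 132 CPM in control and 63.3, 53.3 and 51.3 CPM in knockdown libraries (−1.07 ± 0.09, SE; adjusted p = 5.42e-06, edgeR). CENPF, a large coiled-coil protein of G2 and mitosis, had 265, 261 and 324 CPM in control and 234, 219 and 211 CPM after knockdown (−0.35 ± 0.08; adjusted p = 0.00318, edgeR). In both genes control library 3 was the highest and the groups did not overlap.

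The passenger complex and the shugoshins fell as well, 5 of 5 (median log2 fold change −0.67). INCENP, the scaffold of the complex, had 92.7, 103 and 104 CPM in control and 53.0, 45.9 and 48.7 CPM in knockdown libraries (−1.02 ± 0.07, SE; adjusted p = 4.94e-07, edgeR). BIRC5, which encodes survivin, fell from 143 ± 6.09 to 88.8 ± 1.68 CPM (−0.69), and CDCA8, which encodes borealin, fell from 168 ± 4.57 to 111 ± 3.60 CPM (−0.60). The kinase of this complex, AURKB, is outside the set and had −0.75. SGOL1 (−0.67) and SGOL2 (−0.64), which encode the protectors of centromeric cohesion, fell almost equally.

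The 2 remaining genes fell too. CENPJ, a centriole protein with a CENP symbol, had 21.5, 19.5 and 22.6 CPM in control and 15.2, 12.8 and 13.4 CPM in knockdown libraries (−0.62). CENPV, linked to centromere organisation, had 38.1, 40.4 and 40.7 CPM in control and 25.2, 24.9 and 28.0 CPM in knockdown libraries (−0.61). No knockdown library reached the control range in either gene.

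Partners of 1 complex thus did not fall by equal amounts. The ratio of 2 transcripts within a library does not depend on scaling, and it was taken in each of 11 groups of partners between the gene with the lowest and the gene with the highest log2 fold change. Because the pairs were chosen by those values, the ratios are given without a test. The log2 count ratio of SKA3 to SKA2 was −0.75, −0.76 and −0.70 in control and −1.73, −1.79 and −1.78 in knockdown libraries, a 2.04-fold shift in the fitted values. That of DSN1 to PMF1 was 1.70, 1.62 and 1.79 in control and 0.84, 0.70 and 0.52 in knockdown libraries, a 2.01-fold shift. Both shifts exceeded the spread of either group, but their direction was set by the choice of the pairs. The ratio of CENPW to CENPT went from −0.10 ± 0.15 to −0.73 ± 0.10 and that of CENPU to CENPQ from 0.82 ± 0.01 to 0.18 ± 0.09 (mean ± SD, n = 3). By contrast, the ratio of SGOL1 to SGOL2 was −1.91 ± 0.07 in control and −1.94 ± 0.03 after knockdown, and the groups overlapped.

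**Figure D3:**
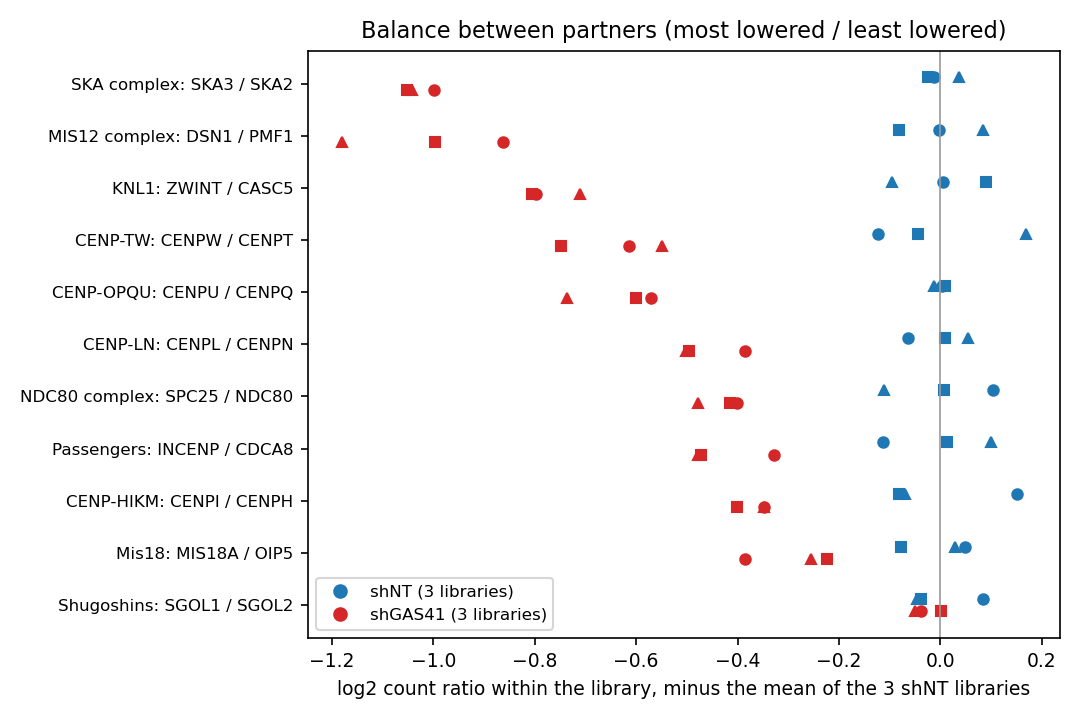
Log2 ratio of the counts of 2 partner genes within each library, minus the mean of the 3 control libraries (horizontal axis), for 11 groups of partners. Circles, squares and triangles are libraries 1, 2 and 3, and only the shugoshin pair has knockdown libraries (red) within the range of the control libraries (blue). Each pair was chosen by its log2 fold changes, so a shift to the left was built in.

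Several genes of the set start close to a gene on the opposite strand. In RefSeq, 16 of the 36 genes with a promoter window had the start of another analysed gene on the other strand within 1000 bases. In 15 of these the starts are arranged head to head, and the starts of CENPT and NUTF2 lie the other way round. The annotated spans of CENPT and NUTF2 and those of MIS12 and DERL2 overlap. Of the 16 neighbours 13 fell and 3 rose, beside 34.5% and 33.6% of all genes tested. Their median log2 fold change was −0.28, beside −0.57 for their partners in the set. Some of the neighbours' falls were small and did not pass once 1 of several libraries was left out (edgeR, adjusted p). DERL2 did not pass without control library 2 (0.0962) or 3 (0.177) or knockdown library 1 (0.0973) or 2 (0.0724). Without control library 1 or 2 or knockdown library 2 or 3, CDC25B (0.0609, 0.0748, 0.0708 and 0.0614) and MUT (0.0803, 0.0963, 0.103 and 0.0995) did not pass. MRP63 did not pass with any 1 of the 6 libraries left out (0.057 to 0.121), nor under 3 other settings. The fitted value of the neighbour was the higher one in 10 of 16 pairs.

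Some close pairs moved apart. CENPO (−0.57) lies 34 bases from PTRHD1, which rose by 1.02 on the log2 scale (adjusted p = 1.14e-06, edgeR), and ZWILCH (−0.77) lies 471 bases from the ribosomal protein gene RPL4, which rose by 0.27 (adjusted p = 0.000109, edgeR). SKA2 showed the reverse: PRR11, whose start is 560 bases away, had 247, 251 and 247 CPM in control and 165, 154 and 157 CPM in knockdown libraries and fell (−0.65, adjusted p = 5.42e-07, edgeR), while SKA2 did not pass the test. SKA3 (−1.09) and MRP63 (−0.15) were 106 bases apart. Others moved alike, such as OIP5 (−0.56) with NUSAP1 (−0.49), which encodes a spindle protein, and NDC80 (−0.60) with METTL4 (−0.45). The sources used here do not state whether counting used strand, so reads from overlapping genes cannot be told apart. The spans of 8 genes of the set overlap another gene of the table in RefSeq (CENPL, CENPO, CENPP, CENPT, CENPU, MIS12, OIP5 and SPC25), and 9 genes have named pseudogene copies that could share reads.

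**Figure D4:**
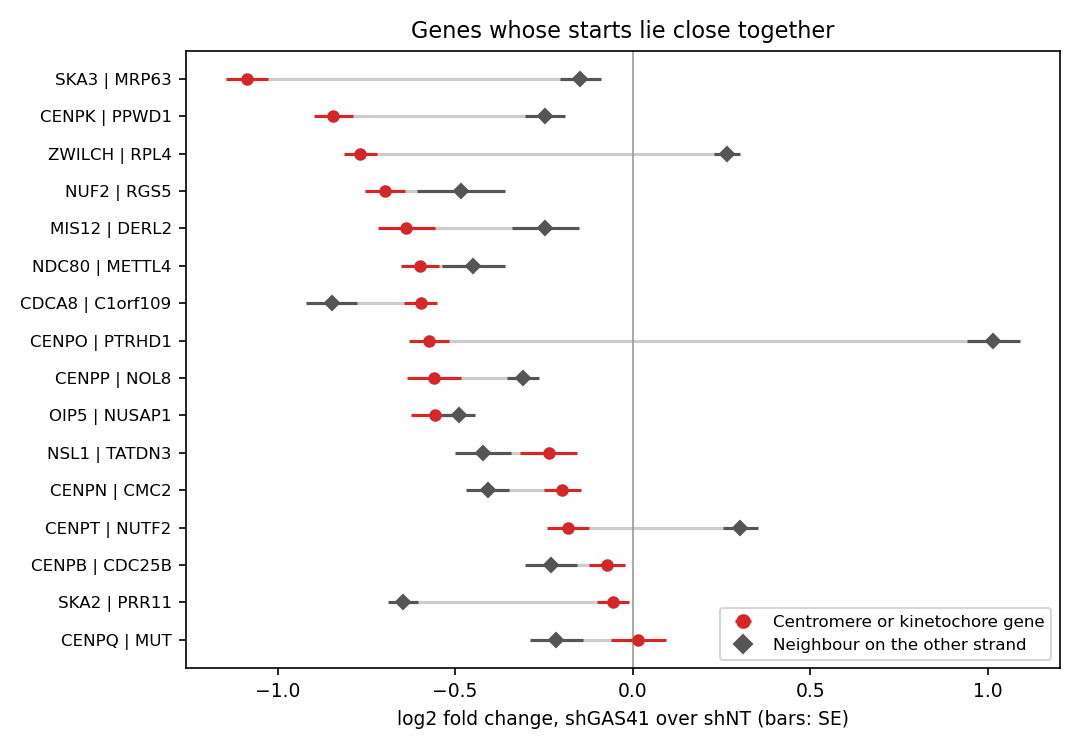
Log2 fold change after knockdown with SE bars (horizontal axis) of 16 genes of the set (red circles) and of the gene on the opposite strand whose start lies within 1000 bases (grey diamonds). PTRHD1, RPL4 and NUTF2 lie above 0, at 1.02, 0.27 and 0.30, while their partners lie below it.

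Beyond the set, 33 further kinetochore genes were examined, drawn up as a list of direct partners and microtubule and checkpoint factors. Of these 24 fell, 4 rose and 5 did not pass the test (median log2 fold change −0.50). Among all genes tested 34.5% fell and 33.6% rose. The fall of RCC2 was lost without control library 2 (adjusted p = 0.0637, edgeR) or 3 (0.0534). The smallest p among the falls belonged to the mitotic kinase gene PLK1 (−1.03), the astrin gene SPAG5 (−1.08) and TRIP13 (−1.38), whose product is an ATPase that remodels MAD2. The checkpoint kinase genes BUB1 (−0.40), TTK (−0.46) and the checkpoint gene BUB1B (−0.76) fell, and so did ZW10 (−0.58), the third subunit gene beside KNTC1 and ZWILCH. MAD1L1, which encodes the MAD2 partner MAD1, did not pass the test (−0.08 ± 0.06, SE; adjusted p = 0.233, edgeR), though it did without knockdown library 1 (−0.13, adjusted p = 0.0471).

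The remaining CENP genes under other symbols fell too: ITGB3BP, the gene of CENP-R (−0.62), STRA13, the gene of CENP-X (−0.61), and APITD1, the gene of CENP-S (−0.35). The 4 rises were in NDEL1 (0.48) and PAFAH1B1 (0.18), which encode dynein regulators, and in CLIP1 (0.38) and CLASP1 (0.22), which encode proteins of growing microtubule ends. Their groups did not overlap. Other genes of these kinds did not rise: CLASP2 (−0.50) and the microtubule polymerase gene CKAP5 (−0.38) fell. MAPRE1 (−0.09) and NDE1 (−0.15) did not pass the test in the main fit, but both passed as falls in some alternative fits (edgeR, adjusted p). MAPRE1 passed with library size alone (0.0282), with a replicate block (0.0471) and without control library 1 (0.0413). NDE1 passed with the block (0.00631) and without knockdown library 1 (0.00397).

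The authors' own comparison gave smaller changes for this set. In the table deposited by the authors (the authors' deposited table), 28 of the 44 genes had a negative log2 fold change with an adjusted p under 0.05 and none a positive one, where 14.6% of all genes in that table were called lower and 18.6% higher. The median log2 fold change of the set in the authors' deposited table was −0.34, beside 0.12 over all its genes. All 28 were also called in the fit of the counts, which called 12 more. The fitted value lay below that of the authors' deposited table for 42 of the 44 genes, by a median of 0.27, and the corresponding median over all genes was 0.13, so the gap was wider for this set.

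The gap differed from gene to gene. MAD2L1 was nearly the same in both, with −0.96 in the authors' deposited table. CENPM, by contrast, had −0.10 (adjusted p = 0.491) in the authors' deposited table although its counts gave −0.87, and CENPF had 0.06 (adjusted p = 0.839) in the authors' deposited table although every knockdown library was below every control library. DSN1 (−0.50), CENPE (−0.37) and INCENP (−0.34) also had values in the authors' deposited table that were much nearer 0 than those from the counts. The sources used here do not name the scaling or model behind the authors' deposited table.

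**Figure D5:**
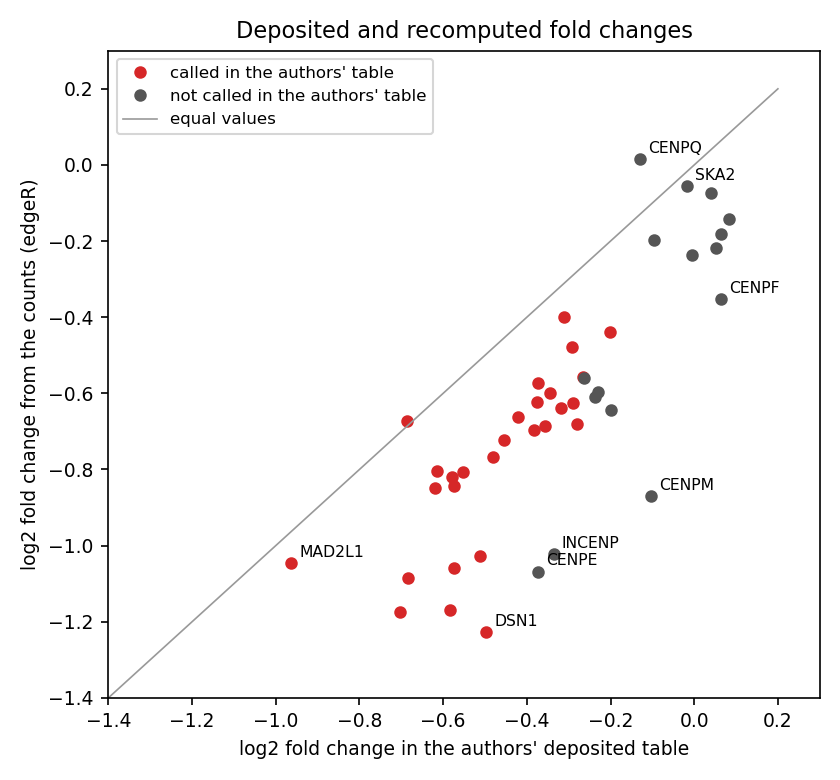
Log2 fold change of the 44 genes in the authors' deposited table (horizontal axis) and from the counts with edgeR (vertical axis), with a line of equal values. Red points are the 28 genes called in the authors' deposited table and grey points the other 16, and 42 of the 44 points lie below the line.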

How the data were processed

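RNA-seq counts of 3 shNT and 3 shGAS41 libraries came from 1 deposited table; the 6 ChIP-seq samples were not analysed here. The authors deposited raw read counts per Ensembl gene. The submitters' processing notes list, without roles, hg19 and the tools HTSeq, TopHat2 2.0.10, Bowtie2 2.1.0, CASAVA 1.8.2 and MACS 1.4.2; nothing used here states the annotation release or strand setting. The authors also deposited, for each gene, the log2 fold change, its p-value and its false discovery rate, and the file's name points to edgeR.

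Groups came from the sample titles. Counts were tested with edgeR 4.0.16 (R 4.3.3; TMM, filterByExpr, robust quasi-likelihood fit, no block) over 13846 genes, 7 being left out by the filter, with Benjamini-Hochberg adjustment at 0.05; glmTreat used a minimum of 1.5-fold. SEs were taken as the absolute log2 fold change divided by the square root of F. The common biological coefficient of variation, 1 value fitted over all genes tested, was 7.58%. Alternatives included DESeq2 1.42.0 and limma 3.58.1. The code was tested on simulated counts. Of 13853 identifiers 13508 matched the gene name table. All 44 genes matched RefSeq, CASC5 as KNL1, SGOL1 as SGO1, SGOL2 as SGO2 and CENPJ as CPAP. Any gene of the set could be named; of the other kinetochore genes, direct partners and the 3 of smallest p in each direction; of the cell-cycle lists, the 2 of smallest p. CLASP1, CLASP2, CKAP5, MAPRE1, NDE1, RCC2, CCNE1, the marker genes and the close neighbours fall outside this rule and were chosen after their values were seen. The genes and lists were chosen with earlier results of these data known.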

Additional observations from a re-analysis of the deposited data

How the results depend on the processing

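Over 14 refits (other scalings, filters and tests, a replicate block, each library left out) the count of falling centromere and kinetochore genes stayed between 38 and 40 of 44 and that of rising ones at 0. The call and direction of 41 of the 44 genes held in all 14, the exceptions being CENPT, NSL1 and PMF1. The count beyond 1.5-fold, run in 12 of these refits (not with DESeq2 or limma-voom), lay between 15 and 19. Leaving out 1 library moved the median log2 fold change of the set between −0.69 and −0.61, that of the KNL1, MIS12 and NDC80 network between −0.70 and −0.61, and that of the other kinetochore genes between −0.51 and −0.46. Scaling by library size alone gave the network −0.69. Taken relative to the median of the late cell-cycle list, the median of the set became 0.0771, and relative to that of all genes −0.65.

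The titles give both groups the replicate numbers 1 to 3. Deviations from the group means of same-numbered libraries correlated at 0.47, 0.09 and 0.09. Controls 2 and 3 correlated more with the knockdown library of the other number (0.29 and 0.30), so the numbers were not taken to pair the libraries. Library 1 of each group correlated negatively with libraries 2 and 3 of the other group (−0.36 to −0.27). A shared origin of the libraries numbered 1 was not tested. With the replicate block 40 genes of the set fell, 19 of them beyond 1.5-fold, with a median of −0.65. Of the other kinetochore genes 27 fell and 4 rose, and over all genes 5260 fell and 5134 rose, against 4770 and 4655 without it. The lowest count of any gene of the set in a library was 517, and the part of depth in the calls was not tested.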
